A study of Jatropha curcas with 4 samples.

Results

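The levels of 5 genes of the AP2/ERF transcription factor family are described here in waterlogged and non-stressed roots of Jatropha curcas, an oil-seed shrub. They are JcRAV-3 (Jcr4S03357.10), JcERFVIII-11 (Jcr4S05837.30), JcERFII-4 (Jcr4S01288.20), JcERFX-5 (Jcr4S01806.10) and JcERFX-6 (Jcr4S03895.40), taken from the count table by their identifiers. These are 5 of the 32 genes of RAV and groups II, VIII and X in the AP2/ERF list at hand, of its 129 AP2/ERF genes in all, and of 57437 gene models in the table. They were picked with their fold changes and levels in these same libraries known, so that every value of the 5 genes is a description and carries no test. Whole roots of plants aged 30 days (cv. Chai Nat) were sampled after 24 h with water standing 3 cm above the soil (waterlogging stress, WS) or after 24 h without it (non-stress, NS), with 2 libraries per treatment. The plants were grown outdoors, and the sources used here do not give the number of plants per library. Polyadenylated RNA was read on an Ion Proton machine, and the authors mapped the reads to genome release 4.5 and counted them per gene model.

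AP2/ERF proteins bind DNA through the AP2 domain, and many of them act downstream of ethylene, a gas hormone that accumulates in waterlogged roots. RAV proteins of Arabidopsis carry a B3 DNA-binding domain beside the AP2 domain and include the floral repressors TEM1 and TEM2. Group VIII of Arabidopsis holds ERF3 and ERF4, repressors with an EAR motif through which co-repressors are recruited, and group II holds DREB-type proteins, some of which also have this motif. Group X of Arabidopsis includes ABR1, ERF109 (RRTF1) and RAP2.6L, which are known from responses to abscisic acid, redox stress and wounding.

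The stretch coding for the AP2 domain is shown for the 3 single-exon genes, because the domain is what the family shares and because its residues 14 and 19 separate DREB-type from ERF-type proteins. It was located by a script in the coding sequences of the AP2/ERF list, and capitals mark the codons of residues 14 to 19, where residue 1 is the one just before the printed stretch.
JcRAV-3 (Jcr4S03357:2175-2336, minus strand): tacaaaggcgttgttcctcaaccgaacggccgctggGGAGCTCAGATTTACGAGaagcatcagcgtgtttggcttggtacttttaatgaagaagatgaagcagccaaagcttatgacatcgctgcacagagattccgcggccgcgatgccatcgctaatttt
JcERFVIII-11 (Jcr4S05837:5705-5872, plus strand): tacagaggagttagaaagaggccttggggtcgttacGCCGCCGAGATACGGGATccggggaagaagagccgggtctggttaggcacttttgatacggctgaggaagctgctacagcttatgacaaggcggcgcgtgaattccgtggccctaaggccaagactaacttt
JcERFII-4 (Jcr4S01288:9428-9595, plus strand): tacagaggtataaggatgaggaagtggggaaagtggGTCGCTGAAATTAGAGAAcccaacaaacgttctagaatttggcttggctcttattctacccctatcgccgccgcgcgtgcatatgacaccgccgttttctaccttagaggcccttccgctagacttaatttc
The first and the last codon in capitals read valine and glutamate in JcERFII-4, the pair usual in DREB-type proteins. They read alanine and aspartate in JcERFVIII-11, the pair usual in ERF-type proteins, and glycine and glutamate in JcRAV-3. JcERFX-5 and JcERFX-6 had the alanine and aspartate of the ERF type in the protein sequences of the list. Their coding stretches are not shown, since the copy of the list used here keeps only the first 399 bases of each coding sequence and the domain lies further on.

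The domain spanned 56 residues in the 4 ERF proteins and 54 residues in JcRAV-3. It was most alike in the pair of group X genes, where 49 of 56 aligned residues were identical (87.5%). JcERFVIII-11 had 76.8% identical residues with JcERFX-6 and 75% with JcERFX-5, and JcRAV-3 and JcERFII-4 were the least alike, with 41.1%. Outside the domain, a search of the list's proteins, at most 400 residues each, found an EAR motif (aspartate, leucine, asparagine, any 2 residues and proline) in 11 of 129 proteins (8.53%). JcERFVIII-11 had it from residue 200 of 211 and JcERFII-4 from residue 145 of 158, both close to the C terminus. It occurred in 7 of 11 proteins of group VIII, in 3 of 9 of group II and in 0 of 8 of group X and 0 of 4 of RAV. A motif known from RAV repressors of Arabidopsis (arginine or lysine, then leucine, phenylalanine, glycine and valine) began at residue 311 of 360 in JcRAV-3 and was found in 2 of the 129 proteins (1.55%). These matches describe the letters of the proteins and carry no statement on their activity.

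The summed counts ranged from 1204502 (NS replicate 2) to 6110438 (NS replicate 1), with 4143491 and 2531520 in WS replicates 1 and 2. Levels are given in CPM, that is, counts divided by the TMM-scaled size of the library in units of 1000000 counts (TMM being a trimmed mean of ratios between libraries), with the SD over the 2 libraries. The detection floor was set at 3 reads, which were 0.798 and 1.26 CPM in WS replicates 1 and 2, and 0.459 and 2.27 CPM in NS replicates 1 and 2. The comparison used the quasi-likelihood test of edgeR on 17410 gene models, those reaching 1 CPM in 2 or more libraries, and a Benjamini-Hochberg adjusted p under 0.05. According to the study's methods the libraries of a treatment are biologically independent. With 2 libraries each, the p-values rest on a small number of samples. ADHa and ADHb, alcohol dehydrogenase genes induced by low oxygen in many plants, had 8020 and 11400 CPM and 1720 and 3640 CPM in WS, against 215 and 184 CPM and 52.3 and 97.6 CPM in NS. The summed level of 7 photosynthesis genes, a check for green tissue, was 68.6 and 37.5 CPM in WS, against 76.9 and 65 CPM in NS, and no list of root cell markers was at hand. A lower level in whole roots can reflect fewer cells of a type or less RNA per cell, which cannot be told apart here.

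All 5 genes had higher CPM in both WS libraries than in either NS library. Of all gene models tested, 25.7% showed this order, and nothing is read from the count because the genes were picked on this contrast. The quasi-likelihood test was passed by 4 of them, JcRAV-3, JcERFVIII-11, JcERFII-4 and JcERFX-5, with higher levels in WS, as it was by 2.45% of the gene models tested, whereas JcERFX-6 did not pass. Other settings changed both group X calls. JcERFX-5 lost its call with limma voom and at equal depth (all libraries thinned to the total of the smallest), and JcERFX-6 gained one with no filter, with the likelihood ratio test, with a replicate block and without WS replicate 2. A further 1.91% passed with lower levels. Without NS replicate 1 or without NS replicate 2, the log2 fold change was 5.35 or 5.53 for JcRAV-3 and 5.21 or 4.06 for JcERFVIII-11. It was 2.53 or 3.14 for JcERFII-4, and at least 6.49 (against a floor of 3 counts) or 7.33 for JcERFX-5. With 1 NS library left, that library is assumed to vary like WS, so that such fits cannot show what the calls rest on.

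**Figure D1:**
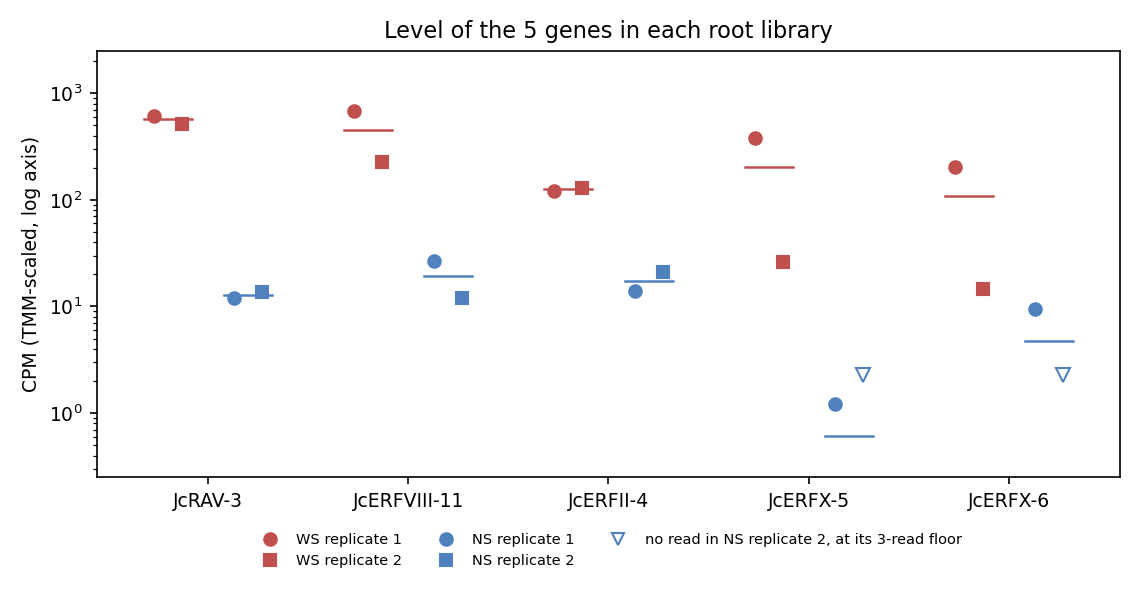
CPM of the 5 genes on a log axis in WS (red, left of each pair) and NS (blue, right), with circles for replicate 1, squares for replicate 2 and a line at the mean of each treatment. The open triangles mark JcERFX-5 and JcERFX-6 in NS replicate 2, which had no read, at its floor of 2.27 CPM. The WS points of JcRAV-3 and JcERFII-4 lie close together, whereas those of both group X genes are more than 10-fold apart.

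JcRAV-3 had the highest mean CPM of the 5 genes in WS. It had 2318 and 1229 reads in the WS libraries (617 and 517 CPM), against 79 and 18 reads in the NS libraries (12.1 and 13.6 CPM). Both WS libraries stood far above both NS libraries, and the lowest WS value was 38-fold above the highest NS value. The mean was 567 ± 70.3 CPM in WS and 12.8 ± 1.08 CPM in NS (SD, n = 2 each), with a fitted log2 fold change of 5.47 ± 0.51 (SE). In WS it exceeded 98.5% of the gene models tested, and in NS 43.3% of them, so that a gene of middle rank in non-stressed roots was among the most abundant transcripts of waterlogged roots. The gene is a single exon of 1083 bp on the minus strand of scaffold Jcr4S03357, from 1425 to 2507, and no other model overlaps it. Its only neighbour on the scaffold, Jcr4S03357.20, a partial pseudogene model 15790 bp away, had 6.39 and 22.3 CPM in WS, against 50.6 and 48.4 CPM in NS (log2 fold change of -1.80 ± 0.69, SE, edgeR adjusted p = 0.184).

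JcERFVIII-11 had the highest single value, in WS replicate 1. It had 2584 and 533 reads in WS (687 and 224 CPM), against 176 and 16 reads in NS (26.9 and 12.1 CPM). The treatments did not overlap, but in both of them replicate 1 was the higher library. The mean was 456 ± 327 CPM in WS and 19.5 ± 10.5 CPM in NS (SD, n = 2 each), and the log2 fold change was 4.5 ± 0.70 (SE). It was 3.52 without WS replicate 1 and 5.21 without NS replicate 1. The gene is a single exon of 636 bp on the plus strand of scaffold Jcr4S05837, from 5618 to 6253. The models on either side, Jcr4S05837.20 and Jcr4S05837.40, lie 1320 bp and 2828 bp away with levels of at most 8.25 CPM in WS and at most 17.4 CPM in NS.

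With all 4 libraries at full depth, JcERFII-4 had the smallest fold change of the 5 genes and the closest agreement of the WS libraries. At equal depth JcRAV-3 agreed more closely, with a log2 ratio of the WS libraries of 0.16, against 0.24 for JcERFII-4. JcERFII-4 had 455 and 305 reads in WS (121 and 128 CPM), against 91 and 28 reads in NS (13.9 and 21.2 CPM). Both WS libraries were at nearly the same level and the lowest of them was 5.72-fold above the highest NS library. The mean was 125 ± 5.17 CPM in WS and 17.5 ± 5.13 CPM in NS (SD, n = 2 each), and the log2 fold change was 2.85 ± 0.51 (SE). It is a single exon of 477 bp on the plus strand of scaffold Jcr4S01288, from 9332 to 9808. Its neighbour at a distance of 10503 bp, Jcr4S01288.30, went the other way, with 12.2 and 45.5 CPM in WS, against 220 and 224 CPM in NS (log2 fold change of -2.95 ± 0.64, SE, edgeR adjusted p = 0.0355). The neighbour on the other side, Jcr4S01288.10, had 15.7 and 24.4 CPM in WS, against 16.5 and 15.9 CPM in NS.

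JcERFX-5 had the largest fitted fold change with all 4 libraries, and WS replicate 1 held most of its reads. It had 1437 and 62 reads in WS (382 and 26.1 CPM), against 8 and 0 reads in NS (1.22 and 0 CPM). The zero in NS replicate 2 allows up to 2.27 CPM, and at the level of NS replicate 1 that library would have been expected to hold 1.62 reads, so that the 2 NS libraries cannot be distinguished at this depth. The mean was 204 ± 252 CPM in WS and 0.612 ± 0.865 CPM in NS (SD, n = 2 each), and the log2 fold change was 7.76 ± 1.39 (SE). The fitted log2 fold change was 8.60 without WS replicate 2 and 4.95 without WS replicate 1, and at least 6.49 without NS replicate 1, against a floor of 3 counts. Without WS replicate 1 it was thus below that of JcRAV-3, which was then 5.4, and the lowest WS value of JcERFX-5 was 21.3-fold above its highest NS value, against 38-fold for JcRAV-3. The gene has 2 coding exons with 1344 bp of coding sequence on the plus strand of scaffold Jcr4S01806, from 10982 to 12757. The one neighbouring model, Jcr4S01806.20, had no read in the 4 libraries.

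JcERFX-6 followed the same pattern between libraries with a smaller fold change. It had 755 and 35 reads in WS (201 and 14.7 CPM), against 62 and 0 reads in NS (9.48 and 0 CPM). WS replicate 2 was only 1.55-fold above NS replicate 1, the narrowest gap of the 5 genes. At the level of NS replicate 1, NS replicate 2 would have been expected to hold 12.5 reads and held none, so that here the NS libraries differed by more than counting error. The mean was 108 ± 132 CPM in WS and 4.74 ± 6.71 CPM in NS (SD, n = 2 each), and its log2 fold change was 4.24 ± 1.31 (SE). Without WS replicate 2 this was 5.06, without WS replicate 1 it was 1.54, without NS replicate 2 it was 3.49, and without NS replicate 1 it was at least 5.57 against a floor of 3 counts. The gene has 3 coding exons with 987 bp of coding sequence on the minus strand of scaffold Jcr4S03895, from 14225 to 17841. Its neighbours at 3056 bp and 2452 bp were steadier between the WS libraries. Jcr4S03895.30 had 15.4 and 27.4 CPM in WS, against 2.45 and 0.756 CPM in NS, and Jcr4S03895.50 had 96.3 and 94.3 CPM in WS, against 61.8 and 45.4 CPM in NS.

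Levels were compared between the genes as CPM per kb of coding sequence. The mean in WS was 717 CPM per kb for JcERFVIII-11, 524 for JcRAV-3, 261 for JcERFII-4, 152 for JcERFX-5 and 109 for JcERFX-6. In this order only JcRAV-3 (569 and 478 CPM per kb) and JcERFII-4 (254 and 269 CPM per kb) were neighbours whose WS libraries did not overlap. The mean in NS gave another order, with 36.8 CPM per kb for JcERFII-4, 30.7 for JcERFVIII-11, 11.9 for JcRAV-3, 4.8 for JcERFX-6 and 0.455 for JcERFX-5. The NS libraries of JcERFII-4 (29.2 and 44.4 CPM per kb) and JcERFVIII-11 (42.3 and 19 CPM per kb) overlapped, as did those of the 2 group X genes. JcRAV-3, at 11.2 and 12.6 CPM per kb in NS, lay below JcERFVIII-11 in both libraries and above the 9.61 and 0 CPM per kb of JcERFX-6.

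The agreement of the WS libraries differed from gene to gene. The CPM in WS replicate 1 was 0.943 times that in WS replicate 2 for JcERFII-4 (exact 95% Clopper-Pearson interval 0.814 to 1.09) and 1.19 times for JcRAV-3 (1.11 to 1.28). It was 3.06 times for JcERFVIII-11 (2.79 to 3.37), 13.6 times for JcERFX-6 (9.72 to 19.7) and 14.7 times for JcERFX-5 (11.4 to 19.2). These intervals cover counting error only. The interval included an equal level in JcERFII-4 and in no other of the genes, and the intervals of the 2 group X genes overlapped each other. Beside gene models whose mean in WS was within 2-fold of the same gene, a larger ratio in either direction was found for 90.1% of 2705 models in JcERFII-4, 71.6% of 587 in JcRAV-3, 13.3% of 723 in JcERFVIII-11, 1.70% of 1705 in JcERFX-5 and 1.49% of 3025 in JcERFX-6. The median ratio among these models was 1.40 to 1.44.

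In NS, the ratio of replicate 1 to replicate 2 was 0.888 for JcRAV-3 (0.527 to 1.57), 0.657 for JcERFII-4 (0.426 to 1.04) and 2.23 for JcERFVIII-11 (1.33 to 3.98). Of the intervals just given, only that of JcERFVIII-11 left out an equal level. The group X genes had no read in NS replicate 2, so that their intervals have no upper limit. That of JcERFX-6 began at 3.30 and also left out an equal level, whereas that of JcERFX-5 began at 0.345 and included it. Over all gene models tested, 57.5% had the higher CPM in NS replicate 1.

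**Figure D2:**
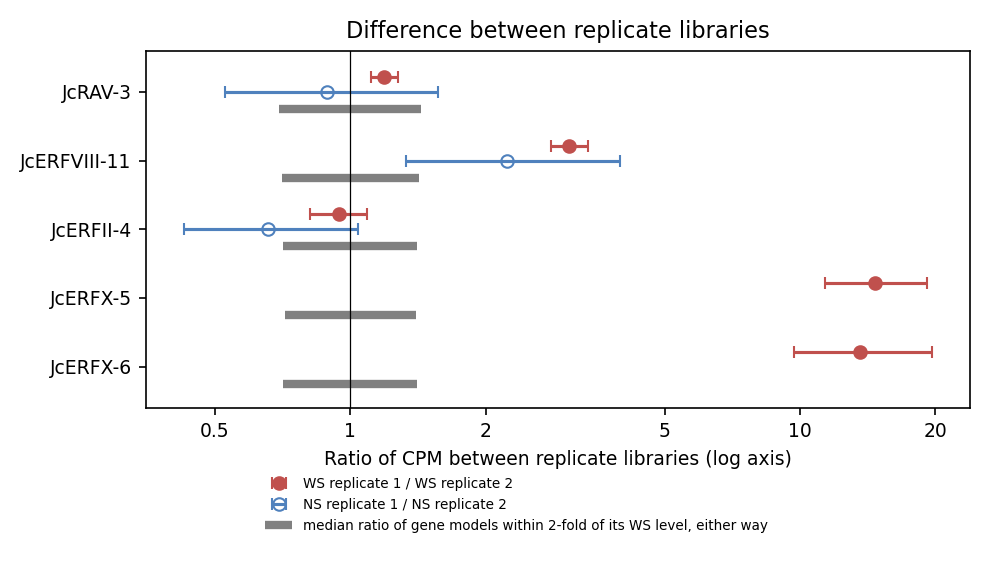
Ratio of CPM between replicate 1 and replicate 2 on a log axis, in WS (filled red, above) and in NS (open blue, below), with exact 95% intervals from read counts. Grey bars run from the inverse of the median ratio to the median ratio between the WS libraries of gene models at a like WS level (1.40 to 1.44). No NS ratio is drawn for JcERFX-5 and JcERFX-6, which had no read in NS replicate 2.

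Among abundant transcripts, gaps of over 8-fold between the WS libraries were mostly in the direction seen in the group X genes. JcERFX-5, at 14.7-fold, and JcERFX-6, at 13.6-fold, were past this limit and are themselves among the 120 models counted next. Among the 4193 gene models tested with a mean of at least 50 CPM in WS, limits chosen after the values were seen, 120 were over 8-fold higher in WS replicate 1 than in WS replicate 2 and 7 were over 8-fold lower. Of the 120, 117 had a positive fitted log2 fold change (WS over NS). Models taken for a high level in WS, and in WS replicate 1 above all, are likely to have a positive value. The share among all 4193 models was not computed, so that nothing is read from this count. Without regard to the size of the gap, WS replicate 1 was the higher library in 52.7% of the 4193 models and in 50.4% of all gene models tested. The part of this difference between the WS libraries in the levels of JcERFX-5, JcERFX-6 and JcERFVIII-11 was not tested.

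**Figure D3:**
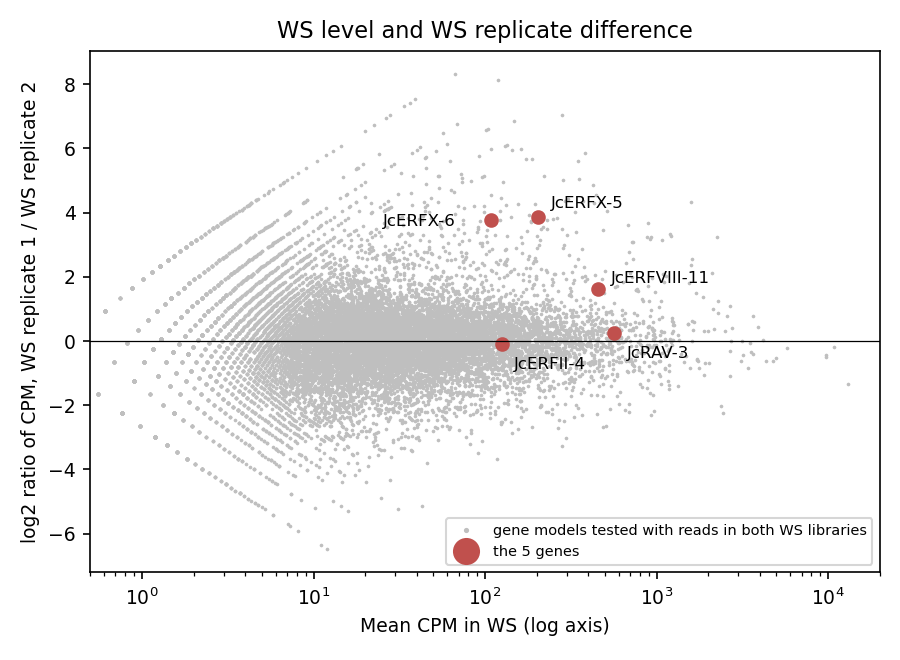
Mean CPM in WS (log axis) and log2 ratio of CPM between WS replicates 1 and 2 for gene models tested with reads in both libraries (grey) and the 5 genes (red). JcERFII-4 and JcRAV-3 lie near 0, at -0.08 and 0.25, JcERFVIII-11 at 1.62, and JcERFX-6 and JcERFX-5 at 3.77 and 3.87, in the sparse upper part of the cloud.

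For each gene, the 2 gene models tested with the most similar levels were found by the Euclidean distance of log2(CPM + 1) over the 4 libraries, where a smaller value means a closer pattern. JcERFII-4 had the closest match, Jcr4S00228.150, at 0.32, with 112 and 158 CPM in WS, against 13.8 and 21.2 CPM in NS. Next to it was Jcr4S01758.40, at 0.59. For JcRAV-3 the nearest were Jcr4S00038.90 (0.97), with 538 and 408 CPM in WS, against 18.8 and 8.32 CPM in NS, and Jcr4S04584.70 (0.99). For JcERFVIII-11 they were Jcr4S00004.70 (0.87), whose best match in Arabidopsis is an oxygenase dependent on 2-oxoglutarate and iron, with 573 and 313 CPM in WS, against 39.0 and 16.6 CPM in NS, and Jcr4S01169.70 (0.96). The group X genes had more distant matches. Jcr4S00005.80, best matched by a calmodulin-binding protein of Arabidopsis, was among the nearest of both, at 1.46 from JcERFX-5 and 1.31 from JcERFX-6, with 251 and 13.5 CPM in WS, against 3.37 and 0 CPM in NS. The others were Jcr4S00352.170 (1.46) for JcERFX-5 and Jcr4S03995.30 (1.36) for JcERFX-6.

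Among the 5 genes themselves the smallest distances were 1.64 between JcRAV-3 and JcERFVIII-11 and 2.54 between JcERFX-5 and JcERFX-6, and the largest was 6.56 between JcRAV-3 and JcERFX-6. Among the tested genes of the AP2/ERF list other than these 5, the nearest was JcERFVIII-3 for JcERFVIII-11 (1.41) and JcRAV-3 (3.00). It was the group IX gene JcERFIX-3 for JcERFII-4 (1.30), with 144 and 97.6 CPM in WS, against 10.1 and 9.07 CPM in NS. For JcERFX-5 (2.56) and JcERFX-6 (3.25) it was JcERFIX-8, also of group IX, with 101 and 8.42 CPM in WS, against 0.306 and 0 CPM in NS. In JcERFIX-8, as in both group X genes, WS replicate 1 was more than 10-fold above WS replicate 2. These values entered the distance by which it was picked.

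Of the 32 listed genes of the 4 groups, 16 entered the test, including the 5 genes, and 16 did not. Of those not tested, 7 had no read and 9 had between 1 and 24 reads summed over the 4 libraries. Of the 11 tested genes beside the 5 described, none passed the quasi-likelihood test of edgeR. At an unadjusted p under 0.05 there were 5 of the 11, against 19.9% of all gene models tested. By DESeq2 3 passed (JcERFVIII-2, JcERFVIII-3 and JcERFVIII-7), against 11.3% of the 15047 gene models to which it gave an adjusted p. By the likelihood ratio test 2 passed (JcERFVIII-3 and JcERFX-2), against 11.5% of all gene models tested. JcERFX-2 is also among those at an unadjusted p under 0.05. It reached the filter only through its WS libraries, where it was high, so that its place in these counts carries no support. Both WS libraries were above both NS libraries in 7 of the 11, 5 of them in group VIII, against 25.7% of all gene models tested. The others with this order were JcERFII-6 and JcERFX-2. Both had 1.68 CPM in WS replicate 2, below the 2.27 CPM floor of NS replicate 2, so that their order cannot be shown at this depth. That of JcERFX-2, with no read in NS, was set by the filter. The median log2 fold change of the 16 tested genes, with JcERFX-2 at its lower bound, was 1.72, against 0.01 over all gene models tested. This median includes the 5 picked genes, and JcERFX-2 entered the test only through its WS libraries. Of the 97 other AP2/ERF genes of the list, 46 were tested, of which 7 passed the quasi-likelihood test with higher and 1 with lower levels in WS, beside 2.45% and 1.91% of all gene models tested.

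Group VIII had the most tested genes, 7 of the 11 in the copy of the list used here. JcERFVIII-3 (Jcr4S00148.70), the closest relative of JcERFVIII-11 in the list with 82.5% identical residues, had 555 and 111 CPM in WS, against 52.0 and 13.6 CPM in NS. Its WS libraries, like those of JcERFVIII-11, were further apart than those of JcRAV-3, and its log2 fold change was 3.30 ± 0.85 (SE). The first 399 bases of the coding sequences of the pair shared no identical run longer than 32 bases. The authors kept reads of at least 35 nt, and no other listed gene shared a run of 35 bases with the 5 genes there. Only exact runs among listed genes were searched, and the domains of JcERFX-5 and JcERFX-6 lie almost wholly beyond that part. Whether reads were shared between similar genes was not tested. The treatment of reads that fit several places was not stated in the sources at hand. JcERFVIII-5 had 199 and 332 CPM in WS, against 122 and 99.8 CPM in NS (log2 fold change of 1.26 ± 0.46, SE), and JcERFVIII-6 had 79.3 and 82.9 CPM in WS, against 101 and 101 CPM in NS (-0.32 ± 0.44). JcERFVIII-2, with 170 and 101 CPM in WS, against 47.4 and 4.54 CPM in NS, and JcERFVIII-7, with 62.5 and 90.1 CPM in WS, against 24.6 and 10.6 CPM in NS, are named because DESeq2 called them.

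The other groups had few expressed genes beside the 5. In group X, JcERFX-1 had 12.8 and 0.421 CPM in WS, against 4.44 and 0 CPM in NS, with WS replicate 1 again the higher library. Its value in WS replicate 2 was 1 read, below the floor of 1.26 CPM there. JcERFX-2 had 19 and 4 reads in WS and none in NS, which is at least 2.47-fold higher than the floor of 3 counts per NS library. JcRAV-2, the only other tested RAV gene, had 13 and 12.2 CPM in WS, against 24.5 and 6.05 CPM in NS (-0.32 ± 0.82 on the log2 scale, SE). In group II, JcERFII-6 and JcERFII-7 had at most 1.86 CPM in any library, and 4 of the 9 genes had no read. The highest value of any RAV or group II gene beside JcRAV-3 and JcERFII-4 was thus the 24.5 CPM of JcRAV-2 in NS replicate 1. WS replicate 1 exceeded WS replicate 2 in all 4 tested genes of group X and in 11 of the 16 tested genes, against 50.4% of all gene models tested. These counts include the 5 picked genes, and nothing is read from them.

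**Figure D4:**
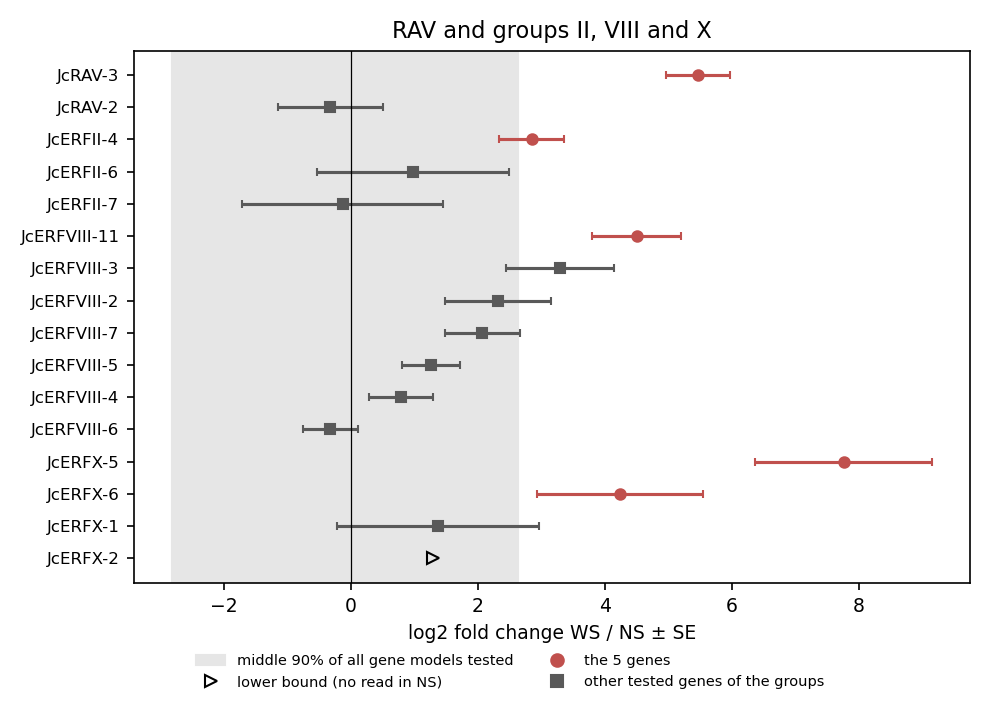
Log2 fold change (WS over NS) ± SE from edgeR for the 16 tested genes of RAV and groups II, VIII and X, with the 5 genes as red circles and the others as grey squares. The shaded band holds the middle 90% of all gene models tested, from -2.82 to 2.63, and the arrowhead is the lower bound of JcERFX-2. The 5 genes and JcERFVIII-3 lie to the right of the band, and the SE is above 1 in the genes drawn from group X and in JcERFII-6 and JcERFII-7.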

How the data were processed

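Root RNA of 2 WS and 2 NS libraries was analysed. The authors trimmed the reads, kept those of at least 35 nt, mapped them with TMAP to genome release 4.5 and deposited raw counts per gene model made with HTSeq. HTSeq and edgeR are the tools named in the submitters' processing notes. Their versions, the strand setting and the treatment of reads with several matches were not given in the sources used here. The deposited tables also hold gene lengths, gene model coordinates, and the authors' own comparison (fold changes, p-values and CPM), which was not used.

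Counts were scaled by TMM and compared with edgeR 4.0.16 in R 4.3.3 (glmQLFit and glmQLFTest, two-sided, no covariate) on models reaching 1 CPM in 2 or more libraries. SEs were derived from the F statistic. The square root of the common dispersion was 0.536. The test was tested on simulated data. Alternatives were RLE scaling, total library size, no filter beyond 1 read, filterByExpr, the likelihood ratio test, DESeq2 1.42.0, limma 3.58.1 (voom), equal depth by a single random thinning, a replicate block and leaving out each library. Ratios between replicate libraries have exact 95% Clopper-Pearson intervals. Python 3.11.15, pandas 2.3.3, numpy 2.4.6, scipy 1.17.1, Biopython 1.88 (BLOSUM62 alignments) and matplotlib 3.10.9 served for summaries and figures.

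The 5 genes and all lists were chosen with earlier results of these data known. Named beside them, by a rule, were up to 3 tested genes per group with the highest mean CPM, any that passed, the models with the nearest patterns, the neighbours on the scaffold and the ADH genes. Gene names, groups and sequences come from a copy of the study's AP2/ERF list. The copy holds fewer AP2/ERF genes than the study reports, so that all counts per group are over this copy.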

Additional observations from a re-analysis of the deposited data

How the results depend on the processing

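The log2 fold changes of the 5 genes were positive under all 13 alternatives. The 4 genes that passed kept their call in 42 of 52 combinations of gene and alternative and lost it in 10, and JcERFX-6 gained a call in 4 of 13. Without either NS library no gene model was called, the lowest adjusted p being 0.102 (without NS replicate 1) and 0.11 (without NS replicate 2), with 2926 and 1823 models at an unadjusted p under 0.05 (edgeR quasi-likelihood test, the only tool run there). With 1 library left in a treatment, that library is assumed to vary like the other treatment. Leaving out each library in turn, log2 fold changes ranged from 5.35 to 5.58 for JcRAV-3, 3.52 to 5.21 for JcERFVIII-11, 2.53 to 3.14 for JcERFII-4, 4.95 to 8.60 for JcERFX-5 (at least 6.49 without NS replicate 1, against 3 counts) and 1.54 to 5.57 for JcERFX-6, the highest being a bound of the same kind. Gene models called ranged from 0 to 2186, and those of the 4 groups from 0 to 8. JcERFX-5 lost its call with limma voom (7.07) and at equal depth (6.5). JcERFX-6 gained one with no filter (4.21), the likelihood ratio test (4.39), the replicate block (4.70) and without WS replicate 2 (5.06).

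Gene models called were 760, against 1963 with no filter, 1994 with the likelihood ratio test, 1695 with DESeq2, 471 at equal depth and 1684 with the replicate block. In the 4 groups 4 genes were called, against 8 with no filter, 7 with the likelihood ratio test, 7 with DESeq2 and 8 with the replicate block. The replicate numbers were not taken as pairs: deviations from the group means of same-numbered libraries correlated with r = 0.087 across 17410 gene models, which are not independent replicates. Total library size moved the median log2 fold change to -0.22 and the split to 361 higher and 433 lower, against 427 and 333. The mean of JcRAV-3 in NS moved from 12.8 to 13.9 CPM with total library size and 14.9 CPM at equal depth, and that of JcERFX-5 from 0.612 to 1.89 CPM at equal depth. There the log2 ratio of the WS libraries was 0.24 for JcERFII-4, 0.16 for JcRAV-3 and 4.53 for JcERFX-6, so that JcRAV-3 agreed more closely than JcERFII-4. In NS replicate 2 the floor of 3 counts was 2.27 CPM, and differences below it cannot be shown at that depth.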
